A study of Mus musculus with 16 samples.

Results

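The genes described here encode plasma proteins of the hepatic acute phase response, followed across mouse liver libraries. They were chosen by name as 10 of the 24082 genes of the deposited table: the serum amyloid A genes Saa1, Saa2, Saa3 and Saa4, the orosomucoid genes Orm1, Orm2 and Orm3, haptoglobin (Hp), lipocalin 2 (Lcn2) and C-reactive protein (Crp). All 10 passed the filter on low values and were tested among 12543 genes. RNA was sequenced from 16 livers of female C57Bl6/J mice, 9 to 11 weeks old, in 4 groups of 4. Mice drank a liquid diet with ethanol, raised to 6% by volume over 25 days (EtOH), or were pair-fed the same diet with maltose dextrin in place of ethanol (Pair). In each diet some mice received iodomethylcholine (IMC), an inhibitor of the bacterial enzyme that makes trimethylamine from choline, at 0.06% by weight in the diet, and the others received vehicle (control). The study describes lower food intake and body weight in mice given IMC together with ethanol, so intake and drug cannot be told apart in that group. A legend of the study also marks a body weight difference between pair-fed mice with and without IMC. Body weight and drug therefore cannot be told apart in pair-fed mice either. By the study's account each sample was 1 mouse, and the labels give no cages.

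The acute phase response is the change in liver secretion that follows infection or injury. Interleukin 6 acting through STAT3, and interleukin 1 acting through NF-kB and C/EBP factors, raise transcription of genes such as Saa1, Saa2, Orm1, Hp and Lcn2 in hepatocytes, while other secreted proteins, among them transthyretin and albumin, decline. In the mouse Saa1 and Saa2 are the most inducible of these genes, Saa4 is made constitutively, Saa3 is made largely by macrophages and adipocytes, and Crp responds weakly, unlike in humans.

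Reads on genes numbered 9632659 to 12601199 per library. Values below are normalized counts, the deposited values put on 1 scale for all 16 libraries, and a change is a difference of log2(normalized count + 1) given with its standard error (SE). The 12 hepatocyte marker genes were present in every library, with summed counts of 1121760 to 1932120. One library stood apart in the genes described here. In Pair control library 12, all 10 genes were above the other 3 Pair control libraries, and 7 of the 10 were at least 2 times their median, against 24.6% and 2.18% of all tested genes. The EtOH IMC and Pair control libraries carry numbers 9 to 16 and the other groups 1 to 8. No source used here says what the numbers stand for. An effect of them cannot be told apart from any comparison within a diet or treatment, or from the difference of the IMC changes between diets. Each result that rests on library 12 is given with and without it. Library 12 was singled out by the values of the 10 genes, so calls that appear only without it are not independent of that choice. In tissue RNA, fewer cells of a type and less RNA per cell cannot be told apart.

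The genes differed widely in level when counts were divided by exon length, the union of the exons of all annotated transcripts. That length was 2478 bases for Saa1, 2518 for Saa2 and 2623 for Lcn2, against 773 to 775 for the orosomucoids. The order between families therefore depends on the annotation. In EtOH control livers Hp, the plasma protein that captures free haemoglobin, was highest with 15110 ± 1408 normalized counts per kilobase (SD, n = 4). Orm1, an acid glycoprotein that binds drugs and lipids, followed with 9986 ± 1298 per kilobase, Crp, which binds phosphocholine on microbes and dying cells, with 2243 ± 83.0, and Saa4 with 1142 ± 215. The ranges of these neighbours did not overlap. Orm2 (258 ± 75.7), Orm3 (212 ± 132), Saa1 (170 ± 81.9), Saa2 (93.8 ± 48.2) and Lcn2 (70.2 ± 34.3 per kilobase) formed a lower tier in which each range overlapped the next. Saa3 was lowest at 16.1 ± 5.83 per kilobase. Hp, Orm1 and Crp kept the first 3 places in all 4 groups by mean. In the EtOH IMC group Saa1 (11.5 ± 3.22) and Saa2 (4.69 ± 1.53 per kilobase) were the neighbours of Saa3 (7.01 ± 2.74) in this order, and the range of each overlapped the next.

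**Figure D1:**
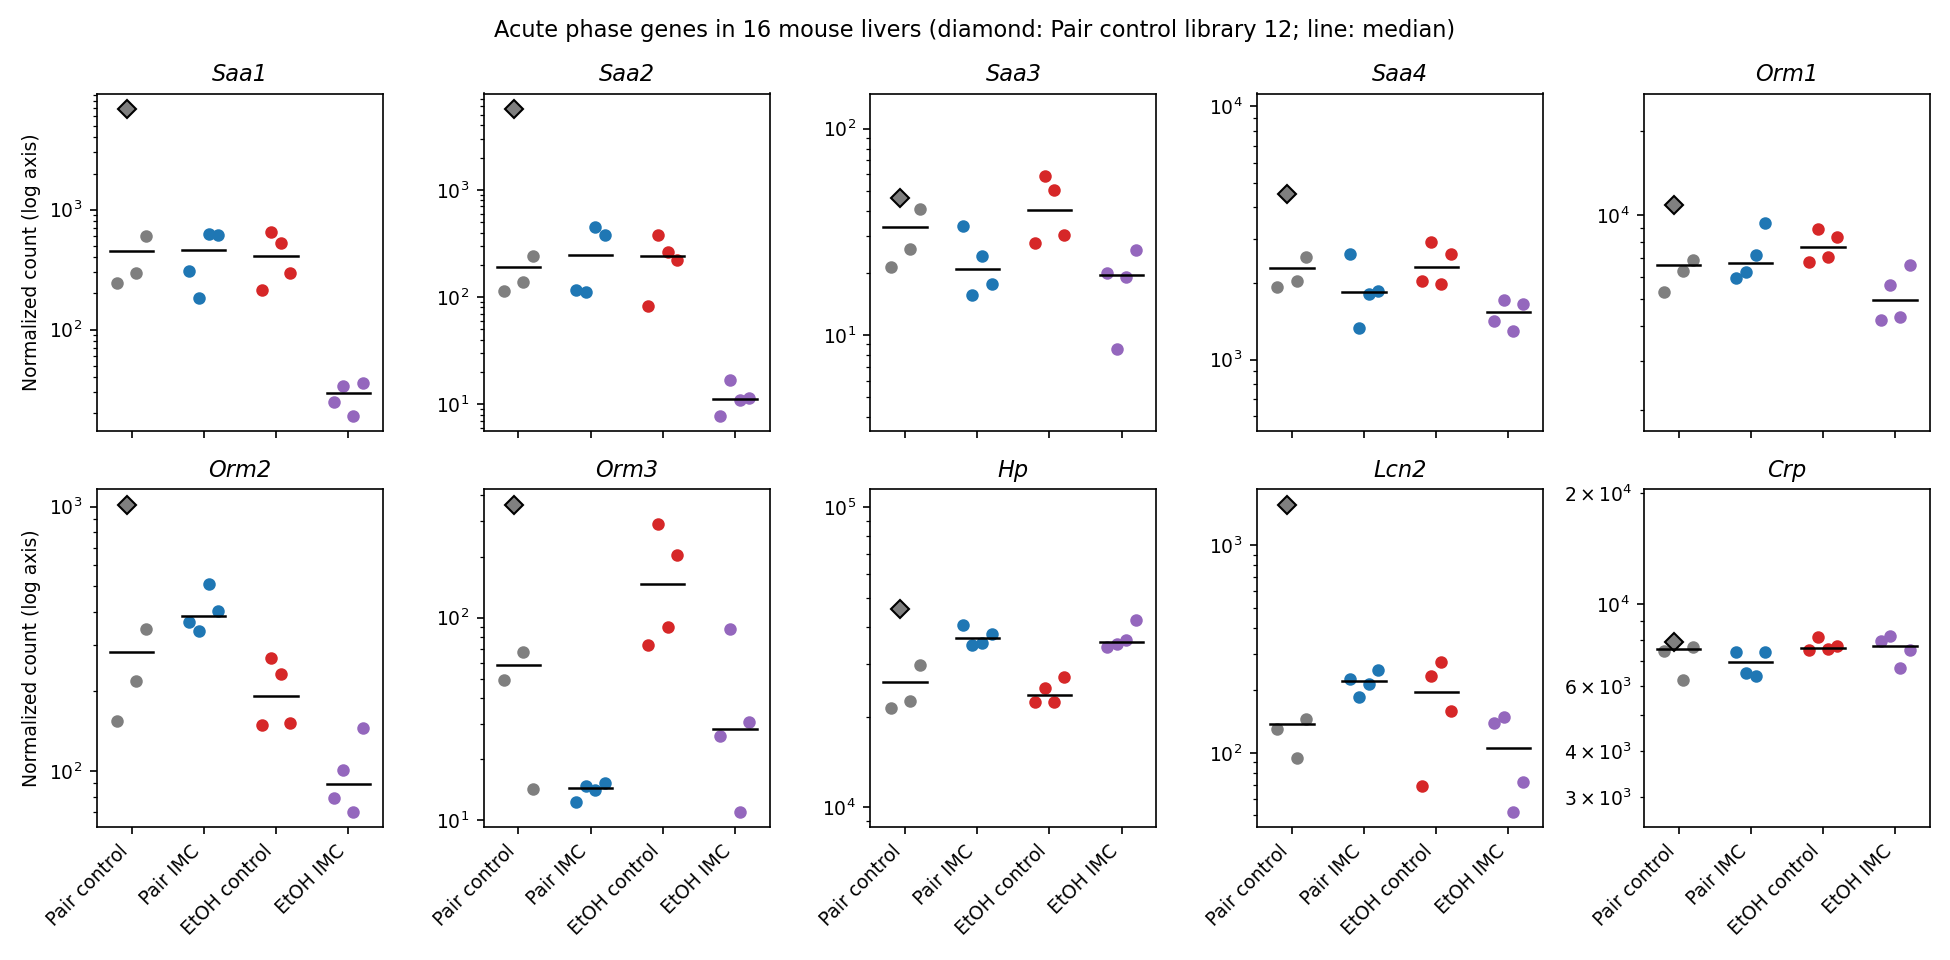
Normalized counts of the 10 genes on log axes, by group, with 1 point for each of the 16 livers, a line at each group's median and a diamond for Pair control library 12. Saa1 and Saa2 in EtOH IMC livers lie below every other library, at 19.0 to 36.1 and 7.79 to 17.0 normalized counts, and the diamond lies at 6933 and 5691.

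The serum amyloid A genes lie together on chromosome 7 (GRCm38, GENCODE vM21). Saa1 is at chr7:46740497-46742980 on the minus strand and Saa2 at chr7:46751790-46754313 on the plus strand, in opposite orientation. Saa4 is at chr7:46727998-46732603 and Saa3 at chr7:46711998-46715700, both on the minus strand. The orosomucoid genes lie on the plus strand of chromosome 4, Orm1 at chr4:63344560-63348163, Orm3 at chr4:63356162-63359511 and Orm2 at chr4:63362449-63365878. Hp is at chr8:109575128-109579172, Lcn2 at chr2:32384633-32388252 and Crp at chr1:172698055-172833031. Of the 100-base windows in Saa1 transcripts 8.96% also occurred in Saa2, and 6.95% of those in Orm1 occurred in Orm2, so part of the reads of these pairs could be assigned to either gene. No other pair of the 10 shared a 100-base window.

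Promoter sequences in the RefSeq set (GRCm38.p6) were matched for 8 of the 10 genes, all but Orm1 and Hp. The 200 bases that end 51 bases before the annotated start are shown for 5 genes, because Saa1, Saa2 and Saa4 are neighbours with unlike responses and Orm2 and Orm3 are close relatives with unlike levels. They run 5′ to 3′ on the gene's own strand, at chr7:46743031-46743230 (Saa1), chr7:46751583-46751782 (Saa2), chr7:46732654-46732853 (Saa4), chr4:63362199-63362398 (Orm2) and chr4:63355908-63356107 (Orm3). Capitals mark matches on either strand to TTNNGNAA, the letters used for the core of a C/EBP site.
Saa1: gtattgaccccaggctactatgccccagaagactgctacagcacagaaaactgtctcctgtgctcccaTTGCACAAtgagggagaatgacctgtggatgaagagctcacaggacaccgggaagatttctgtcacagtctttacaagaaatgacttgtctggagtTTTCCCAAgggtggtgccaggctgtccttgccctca
Saa2: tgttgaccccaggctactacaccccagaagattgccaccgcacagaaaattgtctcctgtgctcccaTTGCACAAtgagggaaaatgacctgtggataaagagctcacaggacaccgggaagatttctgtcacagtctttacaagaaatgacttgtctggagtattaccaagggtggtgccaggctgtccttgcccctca
Saa4: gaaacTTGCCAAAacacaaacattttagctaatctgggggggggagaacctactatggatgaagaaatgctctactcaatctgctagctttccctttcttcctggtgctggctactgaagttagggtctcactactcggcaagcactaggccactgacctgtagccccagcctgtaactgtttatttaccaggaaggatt
Orm2: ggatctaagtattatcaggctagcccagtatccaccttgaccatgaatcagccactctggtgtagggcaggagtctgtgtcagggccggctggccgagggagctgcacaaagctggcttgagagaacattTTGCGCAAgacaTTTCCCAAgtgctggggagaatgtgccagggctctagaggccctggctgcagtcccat
Orm3: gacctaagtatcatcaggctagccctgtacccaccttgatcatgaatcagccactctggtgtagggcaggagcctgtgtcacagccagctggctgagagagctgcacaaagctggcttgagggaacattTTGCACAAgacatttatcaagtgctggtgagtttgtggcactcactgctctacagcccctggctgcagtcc
Saa1 and Saa2 were 93.5% identical over this stretch, whereas Saa1 and Saa4 were 43.6% identical. Orm2 and Orm3 were 85.3% identical. All 8 promoters held at least 1 match to TTNNGNAA, as did 32.3% of 32851 promoters of the same length. Saa1 held matches 182 to 175 and 86 to 79 bases before its start, and Saa2 held 1, 183 to 176 bases before its start. In Orm2 and Orm3 a match stood 120 to 113 and 121 to 114 bases before the start, and Orm2 held a further match 108 to 101 bases before it. The NF-kB motif, read as GGG, 3 unspecified bases and TTCC (3.46% of all promoters), TTCNNNGAA for STAT (5.76%) and CTGGGAA for an interleukin 6 response element (7.22%), searched on both strands, were in none of the 8 windows.

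IMC was compared with vehicle in ethanol-fed mice to ask how the drug changed the liver under ethanol. Of the 10 genes, 6 passed the test at an adjusted p of 0.05 (limma), 5 lower and 1 higher with IMC, where 21.5% of all tested genes passed, 11.1% lower and 10.4% higher. The median change was -0.91 over the 10 genes and -0.0015 over all genes tested. Saa1 and Saa2 fell furthest, and Hp alone rose.

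Saa1, the main inducible serum amyloid A of mouse plasma, had normalized counts of 212, 654, 525 and 299 in the EtOH control libraries 1, 3, 5 and 7. The EtOH IMC libraries 9, 11, 13 and 15 had 25.1, 34.1, 19.0 and 36.1, from 29, 40, 19 and 38 reads. The groups were far apart, and Saa1 fell by 3.75 ± 0.74 with IMC, 13.4-fold on the count + 1 scale (adjusted p = 0.00201). Saa2, its near copy, had 83.0, 376, 264 and 221 in EtOH control and 7.79, 17.0, 11.01 and 11.4 in EtOH IMC livers, the latter from 9, 20, 11 and 12 reads. Saa2 fell by 4.07 ± 0.88, 16.8-fold (adjusted p = 0.00382), and the groups did not overlap, as for 12.9% of genes lower with IMC. The exact two-sided permutation test of 4 against 4 libraries gave p = 0.0286 for each of the 2 genes, the smallest it allows. Without EtOH IMC library 15, edgeR on whole reads gave an adjusted p of 0.0716 for Saa2 at a change of -4.27, while limma on the remaining libraries kept both calls.

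The other serum amyloid A genes had smaller differences. Saa3 had 28.0, 59.1, 50.3 and 30.4 in EtOH control and 19.9, 8.52, 19.0 and 25.7 in EtOH IMC livers, and fell by 1.18 ± 0.35 (adjusted p = 0.0225). This call was lost without EtOH IMC library 11 (change -0.87, adjusted p = 0.0759), EtOH control library 3 (adjusted p = 0.0745) or EtOH control library 5 (-1.07, 0.0648). Saa4, the constitutive family member carried on high-density lipoprotein, had 2037, 2912, 1991 and 2622 in EtOH control and 1421, 1717, 1303 and 1655 in EtOH IMC livers. The Saa4 groups did not overlap, but the change of -0.64 ± 0.23 had an adjusted p of 0.0532, and 0.0141 when the spread was estimated without Pair control library 12. In that fit 8 of the 10 genes passed, Saa4 and Orm2 besides the 6, against 22% of all genes. Library 12 is outside this comparison and was singled out by high values of the 10 genes, so the 22% is not a like-for-like share.

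Among the orosomucoids, Orm1 had 6765, 8869, 7030 and 8291 in EtOH control and 4190, 5612, 4320 and 6594 in EtOH IMC livers. The groups were separate but close, and Orm1 fell by 0.60 ± 0.20 (adjusted p = 0.0395). The Orm1 call was lost without EtOH IMC library 9, 11 or 13 (adjusted p = 0.106, 0.0504 and 0.109), without EtOH control library 3, 5 or 7 (0.104, 0.0554 and 0.0919), and with quantile normalization (-0.42, 0.127). Limma with no filter on low values or no variance trend lost the Orm1 call too (0.0574 and 0.0637). Orm2 had 150, 267, 233 and 152 in EtOH control and 78.7, 101, 70.1 and 145 in EtOH IMC livers. These groups did not overlap either, although libraries 1 and 15 lay close together, and the change of -1.02 ± 0.40 had an adjusted p of 0.0781, and 0.00943 without Pair control library 12. Orm3 varied widely within groups, from 73.0, 290, 89.5 and 204 in EtOH control to 26.0, 87.7, 11.01 and 30.4 in EtOH IMC livers. The Orm3 groups overlapped in library 11, and Orm3 fell by 2.20 ± 0.71 (adjusted p = 0.0356). That call was lost without EtOH IMC library 9, 13 or 15 (adjusted p = 0.0693, 0.115 and 0.0651) and without EtOH control library 3 or 7 (0.106 and 0.0902). Limma with no filter on low values or no variance trend lost it too (0.052 and 0.0603). So did edgeR and DESeq2 without EtOH IMC library 15 (0.105 and 0.11).

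Hp moved the other way. Its counts were 22437, 24984, 22492 and 27154 in EtOH control and 34167, 34926, 36171 and 42005 in EtOH IMC livers. Every EtOH IMC library lay above every EtOH control library, as for 12.3% of genes, and Hp rose by 0.60 ± 0.18, 1.52-fold (adjusted p = 0.0260). Without EtOH IMC library 13 or 15 its adjusted p was 0.0506 and 0.0712, and without EtOH control library 1 or 5 it was 0.0661 and 0.0647, with changes of 0.54 to 0.61. Hp did not pass either in limma with no filter on low values (0.0553) or in edgeR without EtOH IMC library 15 (0.0624). Lcn2, which binds the iron carriers of bacteria, had 69.4, 235, 273 and 159 in EtOH control and 139, 149, 52.1 and 72.2 in EtOH IMC livers. The Lcn2 groups overlapped and the change of -0.79 ± 0.64 did not pass (adjusted p = 0.404). Crp had the smallest difference of the 10, with 7520 to 8138 in EtOH control and 6709 to 8182 in EtOH IMC livers, and a change of -0.03 with a 95% interval of -0.23 to 0.17.

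**Figure D2:**
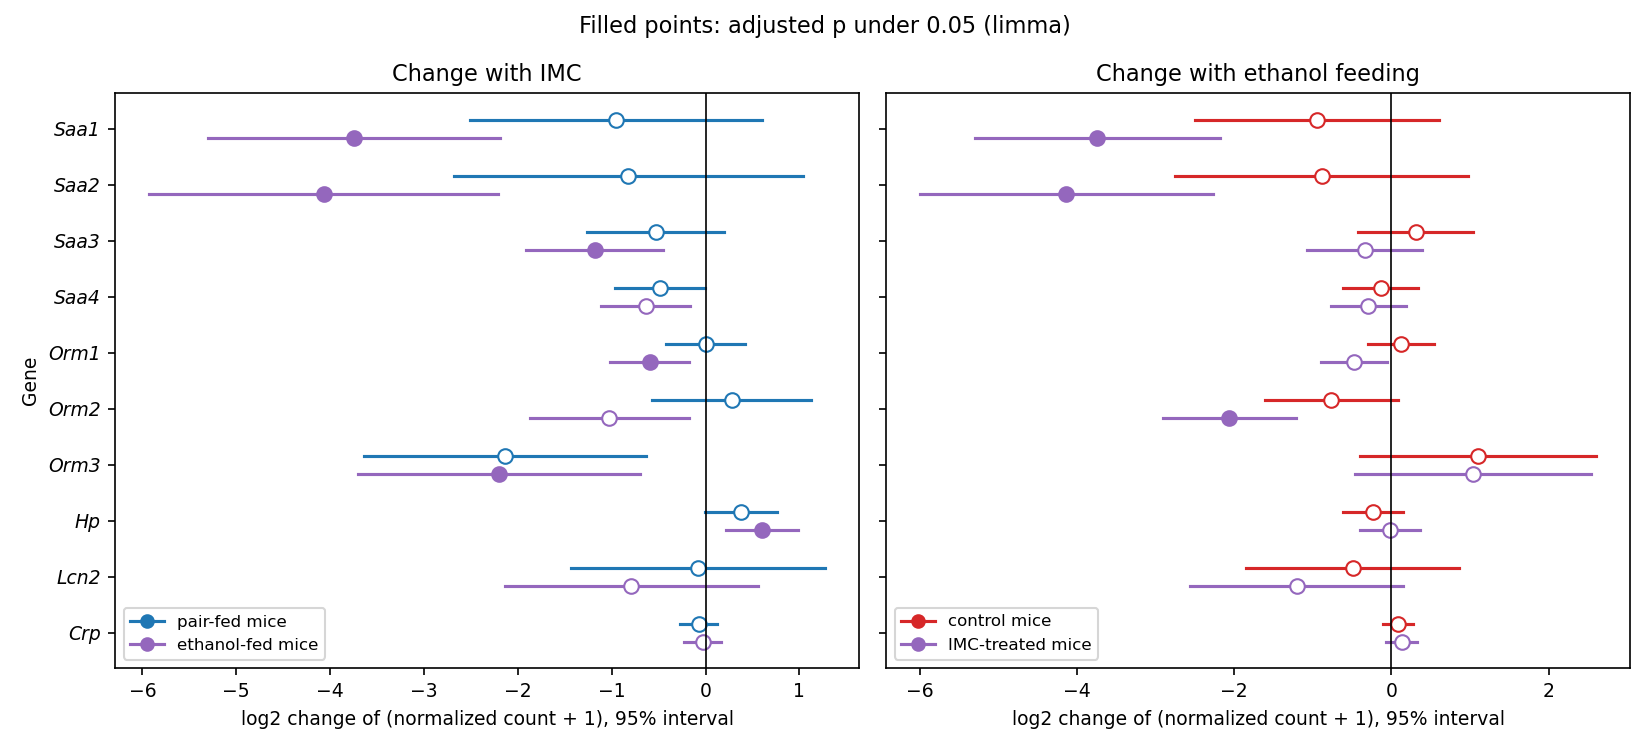
Changes of the 10 genes on the log2 scale with 95% intervals from limma, with IMC on the left and with ethanol feeding on the right, filled where the adjusted p was under 0.05. Saa1 and Saa2 lie at -3.75 and -4.07 for IMC in ethanol-fed mice and at -3.74 and -4.13 for ethanol in IMC-treated mice, 2 comparisons that share the EtOH IMC libraries.

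In pair-fed mice, where the question was what IMC did without ethanol, none of the 10 genes passed the test (limma) against 9.47% of all genes tested. Orm3 and Saa4 had an unadjusted limma p under 0.05 (0.00797 and 0.0476). On all 16 libraries, but not without library 12, edgeR and DESeq2 on whole reads called Orm3. Saa1 had 245, 6933, 295 and 601 in Pair control libraries 10, 12, 14 and 16 and 309, 182, 629 and 609 in Pair IMC libraries 2, 4, 6 and 8. Apart from library 12 these values lay in 1 range, and the change was -0.95 ± 0.74 with it and 0.12 ± 0.43 (95% interval -0.79 to 1.04) without it. Saa2 had 113, 5691, 137 and 244 in Pair control and 116, 112, 448 and 380 in Pair IMC livers, a change of -0.82 ± 0.88 and, without library 12, of 0.47 ± 0.51. Neither gene passed in either fit.

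Orm3 and Hp were the genes whose call in pair-fed mice turned on the libraries used. Orm3 was 12.3, 14.7, 14.1 and 15.2 in the Pair IMC livers and 49.3, 360, 67.2 and 14.3 in the Pair control livers. Library 16, the last of these, lay among the IMC values, and the change of -2.14 ± 0.71 had an adjusted p of 0.0666, 0.0137 without library 16 (change -2.84) and 0.187 without library 12 (change -1.32). The count tests on whole reads called Orm3 in all 16 libraries, at -3.13 with DESeq2 (adjusted p = 0.00432) and -3.14 with edgeR (0.0294). Neither count test called Orm3 without library 12. Hp had 21445, 45873, 22534 and 29718 in Pair control and 40583, 34838, 35237 and 37901 in Pair IMC livers. With library 12 the groups overlapped and the change was 0.38 ± 0.18 (adjusted p = 0.199). Without it all IMC libraries were higher and Hp rose by 0.61 ± 0.14 (adjusted p = 0.0144, where 6.81% of genes passed).

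Lcn2 and Orm2 also turned on library 12 in pair-fed mice without passing the test. Lcn2 had 130, 1566, 94.4 and 146 in Pair control and 227, 186, 216 and 251 in Pair IMC livers, a change of -0.08 ± 0.64 with library 12 and 0.84 ± 0.39 without it (adjusted p = 0.959 and 0.206). Every Pair IMC liver had more Lcn2 than the 3 remaining control livers, as did 9.61% of genes in that comparison. Orm2 had 155, 1017, 218 and 344 in Pair control and 366, 340, 512 and 403 in Pair IMC livers, a change of 0.28 ± 0.40 with library 12 and 0.82 ± 0.28 without it (adjusted p = 0.707 and 0.0851).

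The difference between the IMC changes in the 2 diets was tested as an interaction. An effect of the library numbers cannot be told apart from this interaction. With all libraries no gene of the 10 passed (limma), against 1.11% of all genes, although Saa1, Saa2, Orm2 and Orm1 had unadjusted p values of 0.0157, 0.0185, 0.0345 and 0.0479. No edgeR or DESeq2 fit to all 16 libraries called any, though DESeq2 gave Saa1 and Saa2 no adjusted p. Subtracting the pair-fed from the ethanol-fed change left -2.79 ± 1.05 for Saa1 (adjusted p = 0.203), -3.25 ± 1.25 for Saa2 (0.220) and -1.30 ± 0.57 for Orm2 (0.285). Without Pair control library 12 all 3 passed, where 0.478% of all genes did. The differences were then -3.87 ± 0.59 (adjusted p = 0.00482), -4.54 ± 0.70 (0.00482) and -1.84 ± 0.38 (0.0358). That library was singled out by high values of these same genes, so these calls are not independent support and the 0.478% is not a like-for-like share.

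**Figure D3:**
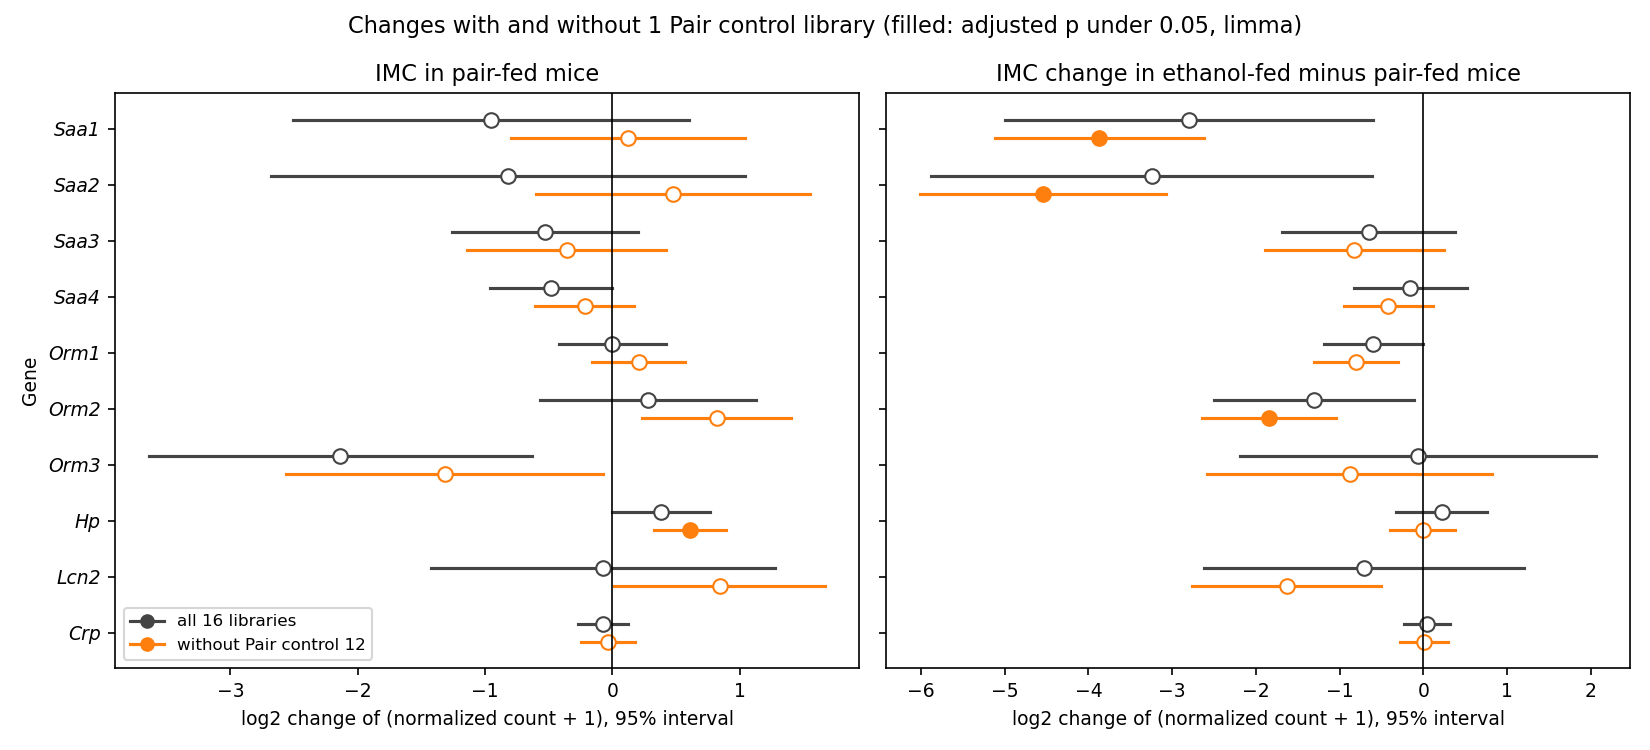
Changes on the log2 scale with 95% intervals for IMC in pair-fed mice (left) and for the difference of the IMC changes between diets (right), from all 16 libraries and without Pair control library 12. Filled points passed the limma test. Leaving the library out moves Saa1 from -0.95 to 0.12 on the left, and Hp on the left and Saa1, Saa2 and Orm2 on the right then pass.

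Ethanol was compared with the pair-fed diet in vehicle-treated mice to ask what ethanol itself did. None of the 10 genes passed (limma), against 11.9% of all genes, none had an unadjusted p under 0.05, and edgeR and DESeq2 called none in all 16 libraries (DESeq2 gave Saa1 and Saa2 no adjusted p). Of the calls over all genes 53.4% were higher with ethanol, and 93.4% on the deposited scale. The difference was -0.95 ± 0.74 for Saa1 and -0.89 ± 0.88 for Saa2, which became 0.13 ± 0.43 and 0.41 ± 0.51 without Pair control library 12. Orm3 was higher in the 4 EtOH control livers (73.0 to 290) than in the 3 remaining Pair control livers (14.3 to 67.2), as were 12.3% of genes. Its change was 1.10 ± 0.71 with library 12 and 1.92 ± 0.59 without it (adjusted p = 0.331 and 0.0494), and 9.83% of all genes passed without it.

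In IMC-treated mice, ethanol lowered 3 of the 10 genes (limma) and raised none, where 16.4% of all genes passed and 8.57% fell. On the deposited scale 87.8% of all calls were higher with ethanol, against 47.8%. Saa1 fell by 3.74 ± 0.74 (adjusted p = 0.00274) and Saa2 fell by 4.13 ± 0.88 (adjusted p = 0.00472). These comparisons use the same EtOH IMC libraries as the comparison of IMC in ethanol-fed mice. Orm2 fell by 2.07 ± 0.40, 4.19-fold (adjusted p = 0.00249), from 340 to 512 in Pair IMC to 70.1 to 145 in EtOH IMC livers. Lcn2 was lower in every EtOH IMC liver (52.1 to 149) than in every Pair IMC liver (186 to 251), as were 9.83% of genes. However, its change of -1.21 ± 0.64 had an adjusted p of 0.215. It was 0.0312 when the spread was estimated without library 12, where 16.7% of all genes passed. Library 12 is outside this comparison and was singled out by high values of the 10 genes, so the 16.7% is not a like-for-like share. For Orm1 the difference was -0.47 ± 0.20 (adjusted p = 0.111). Red cell markers summed to 219 to 395 in Pair IMC and 51.1 to 135 in EtOH IMC livers, and all 4 tested fell. Hepatocyte markers summed to 1787660 to 1917580 and 1121760 to 1384670, with 1 of 12 lower and none higher by limma, and lymphocyte markers to 44.1 to 53.2 and 21.3 to 35.2, with neither of the 2 tested past the test. The part of these cells in the result was not tested. For Saa2, edgeR on whole reads without EtOH IMC library 15 gave an adjusted p of 0.0836.

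Averaged over the 2 diets, IMC changed 6 of the 10 genes (limma), against 28.1% of all genes. Those that fell were, Saa2 (-2.44 ± 0.63), Saa1 (-2.35 ± 0.52), Orm3 (-2.17 ± 0.50), Saa3 (-0.86 ± 0.25) and Saa4 (-0.56 ± 0.16), and Hp rose by 0.49 ± 0.13 (adjusted p between 0.00301 and 0.0148). Without Pair control library 12 the changes were -1.80, -1.81, -1.76, -0.77, -0.43 and 0.61, and all 6 passed, against 26.8% of all genes. Averaged over treatments, ethanol lowered 3 of the 10 (limma), Saa2 (-2.51 ± 0.63), Saa1 (-2.34 ± 0.52) and Orm2 (-1.41 ± 0.28, adjusted p = 0.00722, 0.00343 and 0.00167), against 26.1% of all genes. Of those calls 49.6% were higher with ethanol, and 90.6% on the deposited scale. Without library 12 the 3 changes were -1.86, -1.81 and -1.14. Orm3 then passed as well, but in the other direction, higher with ethanol, where 25.3% of all genes passed. For Saa1 and Saa2 these averages join simple changes of very different size.

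Ratios within a library showed how family members moved against each other. Together the 10 genes took 0.334% to 0.761% of all reads on genes, the highest share in Pair control library 12. Hp made up 53.4% to 61.6% of the reads of the 10 genes in the 8 vehicle libraries and 65.1% to 74.3% in the 8 IMC libraries, without overlap. Saa2 ran at 0.310 to 0.739 of the Saa1 count in 15 libraries and at 0.821 in Pair control library 12. Saa1 itself ranged from 19.0 to 6933 over the same libraries. Orm3 was 0.0276 to 0.0432 of Orm2 in the 4 Pair IMC livers, from 12 to 15 Orm3 reads. In the 4 EtOH control livers this ratio was 0.385 to 1.34. Pair control library 16 had a ratio of 0.0417, near the Pair IMC values, and the other 3 Pair control livers had 0.308 to 0.354. The EtOH IMC livers had 0.157 to 0.873.

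**Figure D4:**
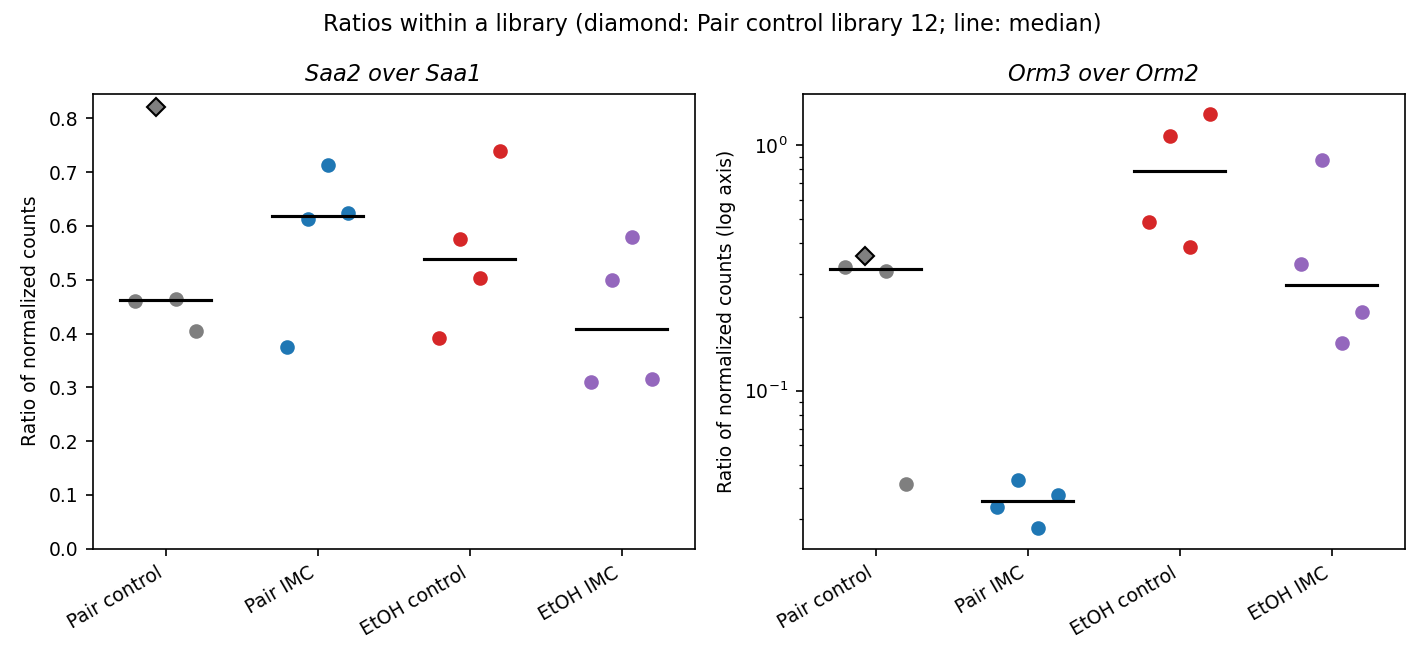
Ratio of Saa2 to Saa1 (left, linear axis from 0) and of Orm3 to Orm2 (right, log axis) in each of the 16 livers by group, with a line at the median and a diamond for Pair control library 12. The Orm3 to Orm2 ratio of the 4 Pair IMC livers lies at 0.0276 to 0.0432, and 1 Pair control liver lies beside them at 0.0417.

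Pair control library 12 was then described across the pathway, as ratios to the median of the other 3 Pair control livers, with no test since it is a single animal. Saa2 was 41.6 times, Saa1 23.5 times and Lcn2 12.1 times that median. Orm3 was 7.30 times, Orm2 4.66 times, Saa4 2.20 times and Hp 2.04 times the median, whereas Orm1 (1.74), Saa3 (1.78) and Crp (1.06) lay under 2. The 32 other positive acute phase genes had a median ratio of 1.60, and 10 of them were at least 2. Among them were the metallothioneins Mt2 (12.3) and Mt1 (5.32), which bind zinc and copper, the secreted glycoprotein Lrg1 (6.59), the iron reductase Steap4 (4.56) and the protease inhibitor Serpina3n (2.63), while Hamp, the iron hormone hepcidin, was at 0.944. None of the 11 negative acute phase genes was above the other 3 livers, and their median ratio was 0.858. The 2 ligands tested had a median ratio of 0.732, with 0 at least 2, and the 14 receptors tested one of 1.22, with 3 at least 2. The 33 kinases, transcription factors and inhibitors tested had a median ratio of 1.14, and 5 were at least 2. Among these 5 were Socs3, the feedback inhibitor of interleukin 6 signalling (8.90), and the transcription factors Cebpd (6.39), Cebpb (3.82) and Stat3 (2.67). These genes of the lists were named after their values were seen. Markers of some other cells were also shifted in this library. All 6 bile duct markers tested were above the other 3 livers (median ratio 2.10), and the red cell markers had a median ratio of 0.543. The summed neutrophil markers were 109, the highest of a group that began at 45.9, with 2 of the 4 tested above the other livers. Median ratios were 1.16 for macrophage and Kupffer cell, 0.996 for sinusoidal endothelial, 1.10 for stellate cell and 0.939 for hepatocyte markers. The lymphocyte, adipocyte and pancreatic lists had 2 tested genes each, with medians of 0.409, 2.12 and 1.56. The part of any of these cells in the result was not tested.

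**Figure D5:**
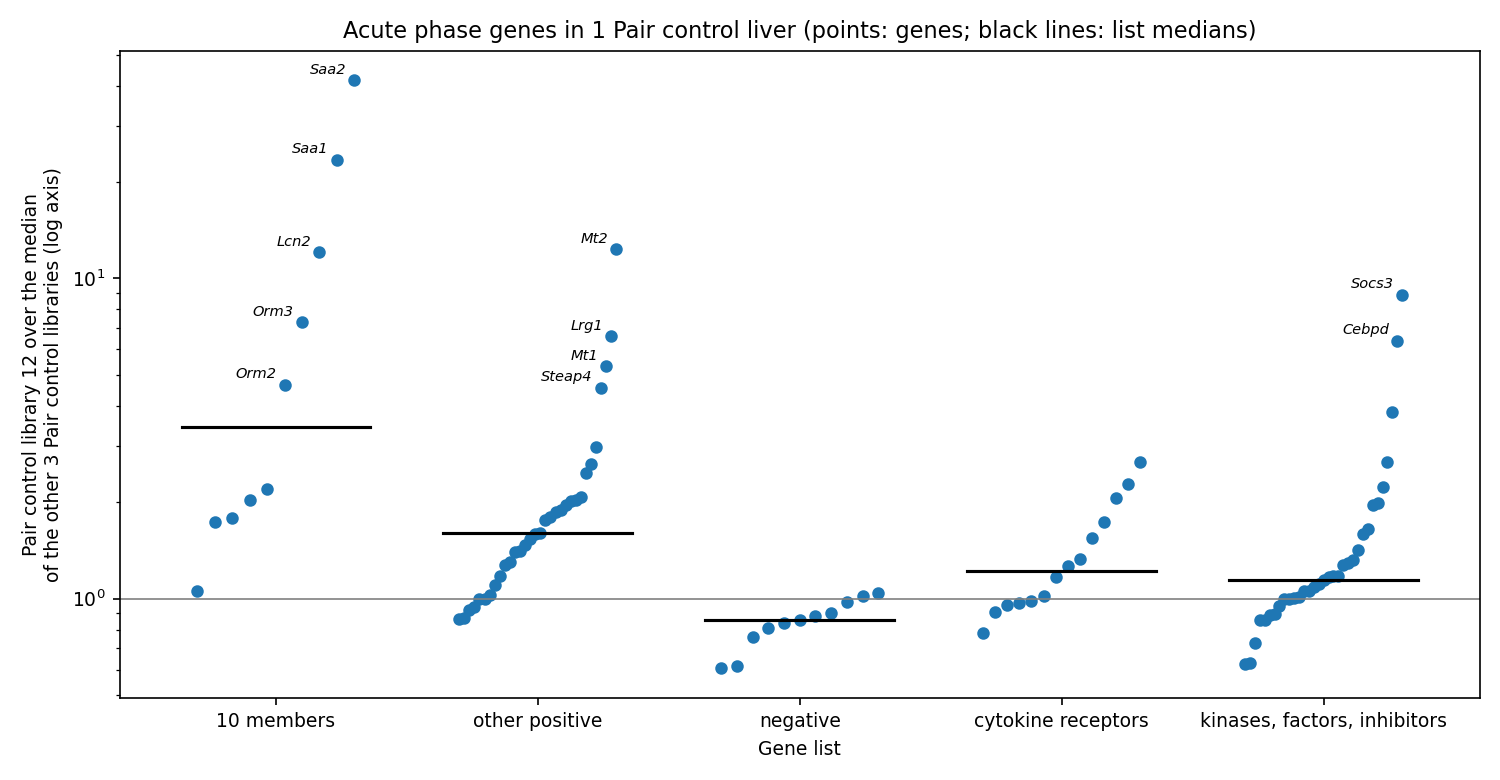
Ratio of Pair control library 12 to the median of the other 3 Pair control livers on a log axis, with 1 point for each tested gene of 5 lists and a black line at each list's median. The 10 genes have a median of 3.43 and the negative acute phase genes one of 0.858, and genes above 4 are named.

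Other genes of the acute phase pathway were taken from lists by role. Of 10 ligands that drive the response only Il1a and Il1b passed the filter on low values, and neither passed the test in any of the 7 comparisons. Il6 had at most 2.60 normalized counts in any library. Among 15 receptors, 14 of them tested, IMC raised 3 and lowered 3 in ethanol-fed mice, where 21.5% of all genes passed. The interleukin 1 receptor Il1r1 rose by 1.14 ± 0.24, the leptin receptor Lepr by 0.85 ± 0.27 and the interleukin 22 receptor subunit Il22ra1 by 0.78 ± 0.22. The shared receptor subunit Il1rap (-0.64 ± 0.08), the leukaemia inhibitory factor receptor Lifr (-0.43 ± 0.10) and the glucocorticoid receptor Nr3c1 (-0.30 ± 0.10) fell. In pair-fed mice IMC raised 2, Lepr (1.90 ± 0.27) and Il22ra1 (1.49 ± 0.22), and lowered 2, Il1rap (-0.42 ± 0.08) and Nr3c1 (-0.36 ± 0.10). Il6ra, the interleukin 6 receptor, fell by 0.69 ± 0.15 with ethanol in IMC-treated mice.

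Of 34 kinases, transcription factors and inhibitors, 33 were tested. IMC in ethanol-fed mice raised 8 and lowered 3, where 21.5% of all genes passed, led by Socs2, an inhibitor of growth hormone signalling (1.38 ± 0.27), Ikbkg, the regulatory subunit of the IkB kinase (0.67 ± 0.14), and the hepatocyte factor Hnf4a (0.62 ± 0.13). In pair-fed mice IMC raised 6 and lowered 3 (9.47% of all genes passed), with Ikbkg at 1.17 ± 0.14, Hnf4a at 0.71 ± 0.13, Cish, another cytokine inhibitor, at -0.99 ± 0.29, and the hepatocyte factor Foxa2 at -0.74 ± 0.21. Ethanol in control mice lowered 3 and raised 1 (11.9% of all genes passed), led by Socs2 (-2.07 ± 0.27) and Nfkbia, the inhibitor of NF-kB (-0.59 ± 0.15). Cebpb and Stat3 did not pass with all libraries. Both passed for IMC in ethanol-fed mice when the spread was estimated without Pair control library 12, at 0.93 ± 0.20 and 0.47 ± 0.15 (adjusted p = 0.00334 and 0.0381 by limma). With all libraries the same changes had an SE of 0.35 and 0.25. In the fit without library 12, 22% of all genes passed. That library is outside this comparison and was high in both genes, so the 22% is not a like-for-like share.

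The 32 other positive acute phase genes, all tested, mostly did not pass the test. IMC in ethanol-fed mice lowered 1 of them, the complement gene C4b (-0.81 ± 0.16), and raised 1, Hamp (2.42 ± 0.46), with a median change of 0.07, where 21.5% of all genes passed. In pair-fed mice none passed with IMC by limma, against 9.47% of all genes, with a median of -0.13. Ethanol in control mice lowered Hamp (-2.47 ± 0.46), the serum amyloid P gene Apcs (-1.14 ± 0.17) and the fibrinogen chain Fgb (-0.63 ± 0.18), against 11.9% of all genes. In IMC-treated mice ethanol lowered C4b (-0.83 ± 0.16) and Apcs (-0.60 ± 0.17) and raised the protease inhibitor Serpina3m (0.57 ± 0.13), against 16.4% of all genes. Of the 11 negative acute phase genes, IMC lowered Igfals, the carrier subunit of circulating IGF1, in both diets (-0.79 ± 0.16 pair-fed, -0.76 ± 0.16 ethanol-fed), Igf1 in pair-fed mice (-0.56 ± 0.14) and the corticosteroid-binding globulin Serpina6 in ethanol-fed mice (-0.95 ± 0.23). None of the 11 rose with IMC in either diet.

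Marker genes of other cell types were set beside these results. In ethanol-fed mice 11.1% of all tested genes were lower with IMC by limma. Stellate cell markers summed to 5776 to 6889 in EtOH control and 3318 to 4519 in EtOH IMC livers, and 4 of the 10 fell with IMC. Red cell markers summed to 134 to 373 in EtOH control and 51.1 to 135 in EtOH IMC livers, and 2 of the 4 tested fell. Macrophage and Kupffer cell markers summed to 6056 to 8543 in EtOH control and 4457 to 7100 in EtOH IMC livers, with none of the 14 past the test, and the 15 neutrophil markers, of which 4 were tested, to 55.0 to 74.2 and 53.1 to 74.1. The part of these cells in the changes of the 10 genes was not tested. Of 10 pancreatic markers, which summed to 68.4 to 158 over the libraries, Cpa1, Cela3b, Pnlip, Amy2a5, Cel and Clps were at 0 in all libraries. The 2 that were tested, Ctrb1 and Cela1, fell with IMC in pair-fed mice (-3.56 ± 0.96 and -0.52 ± 0.14, adjusted p = 0.0265 and 0.0274 by limma). In that comparison 9.47% of all genes passed.

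The genes were also compared with each other over libraries, as a description with no test. After subtraction of group means, Pearson's r of log2 values over 16 livers was 0.970 for Saa1 with Saa2, 0.942 for Saa1 with Orm2 and 0.884 for Saa1 with Lcn2. Without Pair control library 12 these were 0.891, 0.834 and 0.593. For Saa1 with Hp r was 0.826 with the library and 0.393 without it. Saa1 and Saa2 share part of their sequence. Unless stated, group means were not subtracted for the values that follow, so those points share the treatment groups. Over the 16 livers, the genes outside the 10 with the pattern most like Saa1 were C4b (r = 0.927), the anticoagulant protein S gene Pros1 (0.876) and Gm8883 (0.874), and C4b led for Saa2 too (0.899). For Orm2 the nearest was Qsox1 (0.900), for Orm3 Rap1gap2 (0.901), for Hp Il1r1 (0.889), for Saa4 Stap2 (0.898) and for Lcn2 Alpk1 (0.858). The order turned on library 12 and on the measure. Without that library the nearest were Postn for Saa1 (0.930), Sdha for Saa2 (0.923), Eef1g for Hp (0.950) and Cyp7a1 for Lcn2 (0.790), and on deviations from group means Serpina10 was nearest to Saa1 (0.912). Without library 12, r was 0.903 for C4b with Saa1, 0.866 for Il1r1 with Hp and 0.660 for Alpk1 with Lcn2. For Saa3 the nearest was Il10ra (0.837), for Orm1 Pebp1 (0.814) and for Crp Sdhaf4 (0.901).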

How the data were processed

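RNA from 16 livers was sequenced after a directional library preparation (paired-end by the labels, single-end by the methods), trimmed with Trim Galore and aligned to mm10 with STAR. The counting tool is not given in the sources used here. The authors deposited a signal per gene, read counts divided by 1 factor per library. The factors had been set within each diet, which shifted the diets by 0.20 on the log2 scale, so values were rescaled by a median ratio over all 16 libraries. In the 15 libraries where it could be checked, 100% of values came out as whole reads within 0.01. Reads on genes were 9632659 to 12601199 per library.

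Genes with at least 10 normalized counts in at least 4 libraries (12543 of 24082) were tested on log2(value + 1) with limma 3.58.1 (R 4.3.3; group means, variance trend, Benjamini-Hochberg adjustment, threshold 0.05). Contrasts were IMC within each diet, ethanol within each treatment, their averages and the interaction. edgeR 4.0.16, which with TMM on all 16 libraries called 119 to 3520 genes per contrast, and DESeq2 1.42.0 were run on whole reads as alternatives, with other pseudocounts, filters, normalizations and each library left out. The scripts were tested on simulated data. Exact permutation tests were two-sided.

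The 10 genes, the lists and the rules were chosen with earlier results of these data known. Named from each list were genes past the test, at most 6 per contrast by size, defining markers at 0, and for each of the 10 genes the 3 with the highest r. Genes named outside this rule were chosen after their values were seen. Some genes that this rule would name are not reported here. Gene models were GENCODE vM21, and promoters were from RefSeq.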

Additional observations from a re-analysis of the deposited data

Results flagged for a closer look

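In 40 groups of 4 libraries (10 genes in 4 groups), the highest or lowest value was compared with Dixon's critical ratio for the gap to the nearest value over the range. On the log2 scale 1 group exceeded it, through Lcn2 in Pair control library 12, with 1566 normalized counts and a ratio of 0.845. On normalized counts 4 groups exceeded it, through the same library, with ratios of 0.977 for Saa2, 0.965 for Lcn2, 0.947 for Saa1 and 0.847 for Orm3. For normally distributed values chance gives about 1 such group in 20. That rate need not hold on normalized counts, and library 12 had been singled out by these same genes.

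The IMC change differed between diets by interaction (limma) for 5 of the 165 genes of the lists that were tested, where 1.11% of all genes passed. The change in ethanol-fed minus that in pair-fed mice was 3.31 for Hamp (adjusted p = 0.0231) and 1.96 for Socs2 (0.0192). It was -1.30 for Reln (0.0133), -1.11 for Ecm1 (0.0192) and -0.99 for Pdgfrb (0.0252), all 3 from the stellate cell markers. Without Pair control library 12 the adjusted p was 0.0532 for Hamp, with a difference of 3.18, and the other 4 passed, where 0.478% of all genes did.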

How the results depend on the processing

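No paired analysis was possible because the groups compared share no replicate numbers. Over the values of single genes reported above and their alternatives, 759 of 834 kept direction and side of the threshold, 29 lost the call, 25 gained it and 21 changed sign. For IMC in ethanol-fed mice 3 of the 10 genes passed with no filter on low values or with edgeR without EtOH IMC library 15, and 3 to 5 passed when each library of the groups compared, as in all such ranges here, was left out (8 without Pair control library 12, which enters the spread only). In pair-fed mice 1 gene passed with IMC under DESeq2, edgeR with TMM or upper quartile scaling, and both tools without Pair control library 12, and 0 to 1 when each library was left out. The interaction gave 3 genes with edgeR and 4 with DESeq2 without that library, and 0 to 3 when each was left out. For ethanol in control mice 1 passed on values as deposited and with both tools without library 12, and 0 to 1 when each was left out. DESeq2, which gave Saa1 and Saa2 no adjusted p in fits that held library 12, left 1 call for ethanol in IMC-treated mice and for ethanol averaged over treatments (also without EtOH IMC library 15). With each library left out, 6 genes passed for IMC and 3 to 4 for ethanol on average. The count tests without library 12 or 15 were chosen after seeing the data.

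Signs turned in values that had not passed. Crp in ethanol-fed mice was 0.093 with quantile normalization and -0.067 to 0.028 over left-out libraries. For IMC in pair-fed mice without Pair control library 12, edgeR and DESeq2 gave 0.16 and 0.18 for Saa1, 0.66 and 0.68 for Saa2 and 0.81 and 0.83 for Lcn2, and left-out libraries gave -1.48 to 0.12, -1.41 to 0.47 and -0.50 to 0.84. Orm2 was -0.10 with DESeq2, -0.12 and -0.14 with edgeR (TMM, upper quartile) and -0.085 to 0.82 over left-out libraries. For ethanol in control mice edgeR and DESeq2 without library 12 gave 0.14 and 0.15 for Saa1 and 0.51 and 0.52 for Saa2, and left-out libraries gave -1.48 to 0.13 and -1.47 to 0.41. Counts of 9 to 40 reads for Saa1 and Saa2 in EtOH IMC livers limit the precision of their fold. The same limit holds for Saa3, with 10 to 27 reads in EtOH IMC livers. It holds too for Orm3, with 12 to 15 reads in Pair IMC and 11 to 103 in EtOH IMC livers. On the deposited scale ethanol called 3000 genes in control mice against 1488, 3624 in IMC-treated mice against 2060 and 5222 against 3268 on average. The interaction called 139 genes, 54 to 84 without filter, trend or 1 of several libraries, 73 and 64 by edgeR without library 15 or 12, and 261 to 339 by DESeq2. IMC in pair-fed mice called 1188 genes, 691 from its own libraries alone and 537 or 543 without Pair IMC library 4 or 6. Ethanol called 974 and 802 genes in control mice without Pair control library 14 or EtOH control library 5, and 1364 (limma) and 1348 (edgeR) in IMC-treated mice without EtOH IMC library 15.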
